A study of Mus musculus with 6 samples.

Results

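The NFAT and calcineurin pathway is described here through 10 genes in regulatory T cells (Treg) sorted from the mouse spleen. The set was chosen by function, with earlier results of these data known. It holds the NFAT transcription factors Nfatc1, Nfatc2 and Nfatc3, the calcineurin chains Ppp3ca, Ppp3cb and Ppp3r1, and the calcineurin inhibitor Rcan1. The store-operated calcium entry genes Stim1, Stim2 and Orai1 complete it. Each of the 10 symbols matched 1 row of a table of 36811 genes. The 3 libraries labelled cKO come from C57BL/6 mice with the genotype Bach2fl/fl Foxp3EGFP-Cre-ERT2, and the 3 labelled WT from C57BL/6 mice with the genotype Bach2+/+ Foxp3EGFP-Cre-ERT2. The mice of both groups carried EGFP and the tamoxifen-dependent recombinase Cre-ERT2 at Foxp3, so Cre acts in cells that express this Treg transcription factor, and all were 18 to 21 weeks old. Whether and when tamoxifen was given, and whether a library is 1 animal or a pool, is not given in the sources used here, and a p-value then covers only how these libraries vary among themselves. The comparison asks how loss of Bach2, a repressor that binds DNA with small Maf proteins, changes the Treg transcriptome.

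When the T cell receptor is engaged, calcium leaves the endoplasmic reticulum, and STIM proteins sense the emptied store and open ORAI channels in the plasma membrane. The calcium that enters binds calmodulin, which switches on the phosphatase calcineurin, and calcineurin strips phosphate from NFAT so that it moves into the nucleus. In Treg, NFAT is known to act together with Foxp3 at genes such as Il2ra and Ctla4, while in other T cells it pairs with AP-1 at cytokine genes.

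The table holds FPKM, fragments per kilobase of transcript scaled to the size of the library, so levels of different genes can be set side by side. The spacing of low values put the scale of the libraries at about 3610000, 5020000 and 3950000 fragments across cKO 1 to 3, against about 4530000, 3060000 and 3970000 across WT 1 to 3. The targeted gene does not check the labels: Bach2 stood at 7.88, 9.19 and 6.44 FPKM across cKO 1 to 3, against 3.29, 8.25 and 4.80 FPKM across WT 1 to 3, and the deleted part of the gene is not given in the sources used here. Every direction below therefore rests on the labels of the libraries alone. The 6 Treg markers examined (Foxp3, Il2ra, Ikzf2, Ctla4, Cd4 and Cd3e) were above 0 in every library. They summed to between 864 and 1135 FPKM in libraries labelled cKO and between 900 and 1087 FPKM in those labelled WT. Foxp3 itself stood at 5.16 to 9.44 FPKM over the 6 libraries. A level above 0 does not check the sort, because the B cell markers other than Pax5 met it as well. B cell transcripts were present too, with the 7 markers of that list summing to between 1797 and 2621 FPKM in libraries labelled cKO and between 1590 and 3015 FPKM in those labelled WT, and Pax5 at 0 in cKO 3. In such bulk samples, fewer cells of a type and less RNA per cell cannot be told apart.

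Rcan1 is the classical readout of calcineurin activity, because its short isoform is known to start from an internal promoter that NFAT drives. The table has 1 row for Rcan1, so its isoforms are added together. The 2 start windows of Rcan1 in RefSeq on GRCm38.p6, each 300 bases on the minus strand from 250 before the start to 50 after it, are shown because they differ in the letters that NFAT and AP-1 or Bach proteins are known to bind. Capitals mark the NFAT core GGAAA, read on either strand (TTTCC), and the AP-1 and Bach element TGANTCA. None of the marked letters overlap.
Upstream start, chr16:92466120-92466419: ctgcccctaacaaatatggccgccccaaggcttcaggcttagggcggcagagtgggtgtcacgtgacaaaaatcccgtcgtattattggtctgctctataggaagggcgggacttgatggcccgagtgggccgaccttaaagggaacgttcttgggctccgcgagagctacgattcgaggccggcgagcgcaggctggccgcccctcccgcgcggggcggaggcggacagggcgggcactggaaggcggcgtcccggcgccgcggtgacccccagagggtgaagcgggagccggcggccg
Internal start, chr16:92400029-92400328: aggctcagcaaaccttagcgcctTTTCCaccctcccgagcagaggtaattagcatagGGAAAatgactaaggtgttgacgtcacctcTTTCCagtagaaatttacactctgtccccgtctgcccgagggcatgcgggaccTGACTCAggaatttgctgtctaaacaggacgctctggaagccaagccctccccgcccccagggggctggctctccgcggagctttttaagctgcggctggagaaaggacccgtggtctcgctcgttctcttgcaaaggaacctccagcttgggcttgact
The internal window held 3 NFAT cores and 1 AP-1 and Bach element, and the upstream window held neither. Among all 32851 windows of the same length, 61.3% held an NFAT core, 7.81% held the AP-1 and Bach element, and 0.837% held at least 3 cores together with at least 1 element. These last limits equal the counts of the internal window itself, so the share describes that window and is not a test. RefSeq windows were examined for 8 of the 10 genes, 11 windows in all, and the element appeared in none of the others among these. The search of the set skipped the windows of 1 chromosome, which the count over all 32851 windows did not. No window of Nfatc1 or Ppp3ca was examined, so nothing is said here about their letters. The Ppp3cb window held 4 NFAT cores, a number reached by 2.65% of windows, and the windows of Stim1, Stim2, Ppp3r1 and Orai1 held none. These are matches of letters, not measured sites, and binding was not measured in these libraries.

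No gene of the set passed the test between libraries labelled cKO and those labelled WT. Of the 10, 0 passed a Benjamini-Hochberg adjusted p of 0.05 (limma on log2(FPKM + 1), adjusted over the 11979 genes tested), 0 had an unadjusted p under 0.05, and the smallest adjusted p was 0.925. At the unadjusted threshold 1 gene passed with no filter on low values (Orai1) and 1 without WT replicate 1 (Ppp3cb). Over all genes tested, 0.025% passed the adjusted threshold and 5.37% the unadjusted one, 3.59% with higher and 1.78% with lower values in libraries labelled cKO. These shares are 430 and 213 genes, and the split moved with the scaling: 768 were higher and 97 lower with equal library sums, 341 and 277 by quantile normalization, 356 and 276 by trimmed-mean scaling, and 368 and 320 after centring by transcript length. In the set, 6 of 10 genes had a log2 difference above 0 with a median of 0.06, beside 55.0% of all genes and a median of 0.03. With equal library sums it was 8 of 10 with a median of 0.21, where the median of all genes was 0.17. Without WT replicate 1 it was 5 of 10 with a median of -0.04, and without cKO replicate 1 or WT replicate 3 the median was -0.00043 or -0.0023. The groups did not overlap in 1 of the 10 genes, Orai1, a share near the 10.7% of all genes whose groups did not overlap. A missed threshold does not show that levels were alike, and the interval of each difference is given with the gene.

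**Figure D1:**
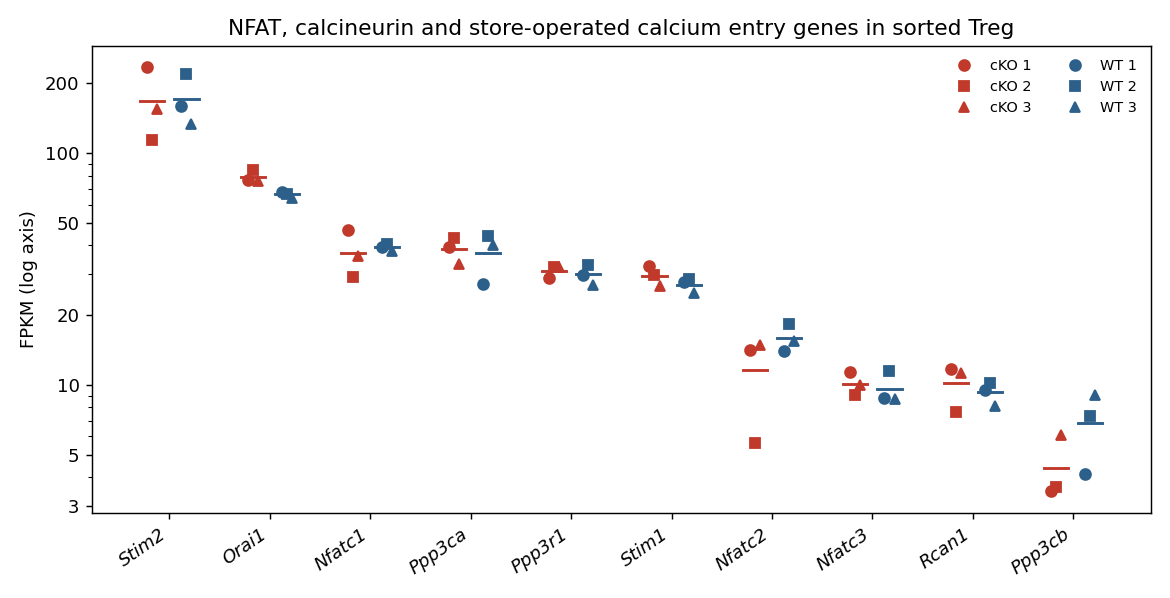
Level of each gene in FPKM on a log axis, genes ordered by their mean over the 6 libraries, with libraries labelled cKO (red) to the left of those labelled WT (blue), 1 point per library and a bar at each group's mean of 3. Stim2 lies above Orai1 in every library, and Orai1, at 64.2 to 84.8 FPKM, is the only gene of the set whose groups do not overlap.

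The levels formed 4 steps. Stim2 stood highest, at 114 to 235 FPKM over the 6 libraries, and Orai1 came next at 64.2 to 84.8 FPKM, with no overlap between these genes. Nfatc1, Ppp3ca, Ppp3r1 and Stim1 followed with means from 38.2 to 28.4 FPKM, and neighbours in this order overlapped. Nfatc2, Nfatc3, Rcan1 and Ppp3cb formed the lowest step, with means from 13.8 to 5.63 FPKM and ranges that again overlapped from 1 neighbour to the next.

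Among the NFAT factors, Nfatc1 was the most abundant. It is the factor known to induce its own short isoform when T cells are activated, and the table adds its isoforms together. Nfatc1 stood at 46.6, 29.1 and 36.0 FPKM across cKO 1 to 3, against 39.2, 40.5 and 37.9 FPKM across WT 1 to 3. The libraries labelled WT lay close together, while those labelled cKO spread on either side of them. The log2 difference was -0.10 (standard error 0.19), and its 95% interval ran from -0.55 to 0.35 (limma, adjusted p = 0.974).

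Nfatc2, the NFAT factor of resting T cells that is present before activation, stood at 14.2, 5.64 and 14.8 FPKM across cKO 1 to 3, against 14.1, 18.4 and 15.5 FPKM across WT 1 to 3. Only cKO 2 was low, and the other two libraries of that label lay within the WT range. The log2 difference was -0.53 with an interval from -1.38 to 0.31 (limma, adjusted p = 0.925), and it was -0.12 without cKO replicate 2 (adjusted p = 0.982). Nfatc3, which acts beside Nfatc2 in T cells, stood at 11.4, 9.05 and 9.95 FPKM across cKO 1 to 3, against 8.75, 11.5 and 8.71 FPKM across WT 1 to 3, with overlapping groups and a log2 difference of 0.07 (interval from -0.37 to 0.51). Nfatc1 made up 63.4% ± 3.77 of the summed FPKM of the 3 factors in libraries labelled cKO and 60.6% ± 2.88 in those labelled WT (SD, n = 3 each). The share of Nfatc2 was 19.7%, 12.9% and 24.4% across cKO 1 to 3, against 22.7%, 26.1% and 25.0% across WT 1 to 3, so it overlapped between the groups. Of the related genes outside the set, Nfatc4 was listed at 0 in all 6 libraries. Nfat5, a tonicity-responsive relative that does not need calcineurin, stood at 6.04, 0.826 and 6.87 FPKM across cKO 1 to 3, against 3.48, 2.95 and 3.13 FPKM across WT 1 to 3. As with Nfatc2, cKO 2 was the lowest library.

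Calcineurin is a catalytic chain (Ppp3ca, Ppp3cb or Ppp3cc) joined to a calcium-binding regulatory chain (Ppp3r1 in most tissues). Ppp3ca stood at 39.3, 43.1 and 33.3 FPKM across cKO 1 to 3, against 27.3, 43.9 and 40.2 FPKM across WT 1 to 3. The groups overlapped, with WT 1 the lowest library, and the log2 difference was 0.07 with an interval from -0.43 to 0.58 (limma, adjusted p = 0.981). Ppp3cb, another catalytic chain, stood at 3.48, 3.63 and 6.10 FPKM across cKO 1 to 3, against 4.12, 7.34 and 9.09 FPKM across WT 1 to 3. Its mean was 0.643 times that of WT, but cKO 3 lay above WT 1, and the log2 difference of -0.52 had an interval from -1.30 to 0.27 (limma, adjusted p = 0.925). It was -0.80 without WT replicate 1 and -0.31 without WT replicate 3. By the estimated scale and the annotated coding transcripts, 29 to 138 fragments lay behind a Ppp3cb value, and its values varied most of the set, with a coefficient of variation of 40.5% over the 6 libraries. Ppp3cc, the remaining catalytic chain, known mainly from testis, was not rare here. It stood at 41.3, 30.7 and 41.4 FPKM across cKO 1 to 3, against 34.2, 51.7 and 42.5 FPKM across WT 1 to 3.

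By summed FPKM, Ppp3ca made up 47.9% ± 7.25 of the catalytic chains in libraries labelled cKO and 42.7% ± 1.10 in those labelled WT (SD, n = 3 each). Ppp3cc made up 49.1%, 39.7% and 51.2% across cKO 1 to 3, against 52.1%, 50.2% and 46.3% across WT 1 to 3. It exceeded Ppp3ca in every library but cKO 2. Ppp3cb was the minor chain, at 4.14%, 4.68% and 7.55% across cKO 1 to 3, against 6.27%, 7.13% and 9.89% across WT 1 to 3, and these shares overlapped. Ppp3r1 was the steadiest gene of the set, with a coefficient of variation of 7.41% over the 6 libraries. It stood at 29.0, 32.3 and 32.1 FPKM across cKO 1 to 3, against 29.9, 32.9 and 27.1 FPKM across WT 1 to 3, a log2 difference of 0.06 with an interval from -0.27 to 0.38 (limma, adjusted p = 0.977). Ppp3r2, the testis form of the regulatory chain, was listed at 0 in all 6 libraries.

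Rcan1 binds calcineurin and restrains it. It stood at 11.7, 7.68 and 11.3 FPKM across cKO 1 to 3, against 9.53, 10.2 and 8.09 FPKM across WT 1 to 3. The highest and the lowest values both belonged to libraries labelled cKO, so the groups overlapped. The log2 difference was 0.11 (standard error 0.21), and its interval ran from -0.39 to 0.61 (limma, adjusted p = 0.974). Without cKO replicate 2 it was 0.29, and without cKO replicate 1 it was 0.010. Between 47 and 103 fragments lay behind an Rcan1 value by the estimated scale. Of its relatives, Rcan2 was listed at 0 in all 6 libraries, and Rcan3 stood at 22.7 ± 3.85 FPKM in libraries labelled cKO and 19.2 ± 3.84 FPKM in those labelled WT (SD, n = 3 each).

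The sensors of the calcium store are Stim1, the main trigger of ORAI channels in T cells, and Stim2, which responds to smaller losses of store calcium. Stim1 stood at 32.6, 29.7 and 26.6 FPKM across cKO 1 to 3, against 27.7, 28.7 and 24.8 FPKM across WT 1 to 3. The groups overlapped, and the log2 difference was 0.12 with an interval from -0.22 to 0.46 (limma, adjusted p = 0.946). This difference shrank to 0.055 when cKO 1 was left out and to 0.065 when WT 3 was, and grew to 0.20 when cKO 3 was. Stim2 stood at 235, 114 and 155 FPKM across cKO 1 to 3, against 160, 219 and 134 FPKM across WT 1 to 3, a log2 difference of -0.06 with an interval from -0.77 to 0.66 (limma, adjusted p = 0.996). Stim2 was thus more abundant than Stim1 in every library. The ratio of their FPKM was 7.20, 3.85 and 5.83 across cKO 1 to 3, against 5.78, 7.62 and 5.38 across WT 1 to 3, and within each label the spread was wider than the gap between the labels.

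Orai1 forms the pore of the calcium channel that STIM opens, and it was the only gene of the set whose groups did not overlap. It stood at 76.3, 84.8 and 76.1 FPKM across cKO 1 to 3, against 68.1, 66.9 and 64.2 FPKM across WT 1 to 3. Each library labelled cKO was above each labelled WT, at means of 79.1 ± 4.98 against 66.4 ± 2.03 FPKM (SD, n = 3 each), a ratio of 1.19. The log2 difference of 0.25 carried a standard error of 0.12 and its interval ran from -0.03 to 0.52, so it did not pass (limma, adjusted p = 0.925). Its unadjusted p ranked 920th among the 11979 genes. Among all genes tested, 6.96% had non-overlapping groups with the cKO libraries higher, and 3.75% with them lower.

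**Figure D2:**
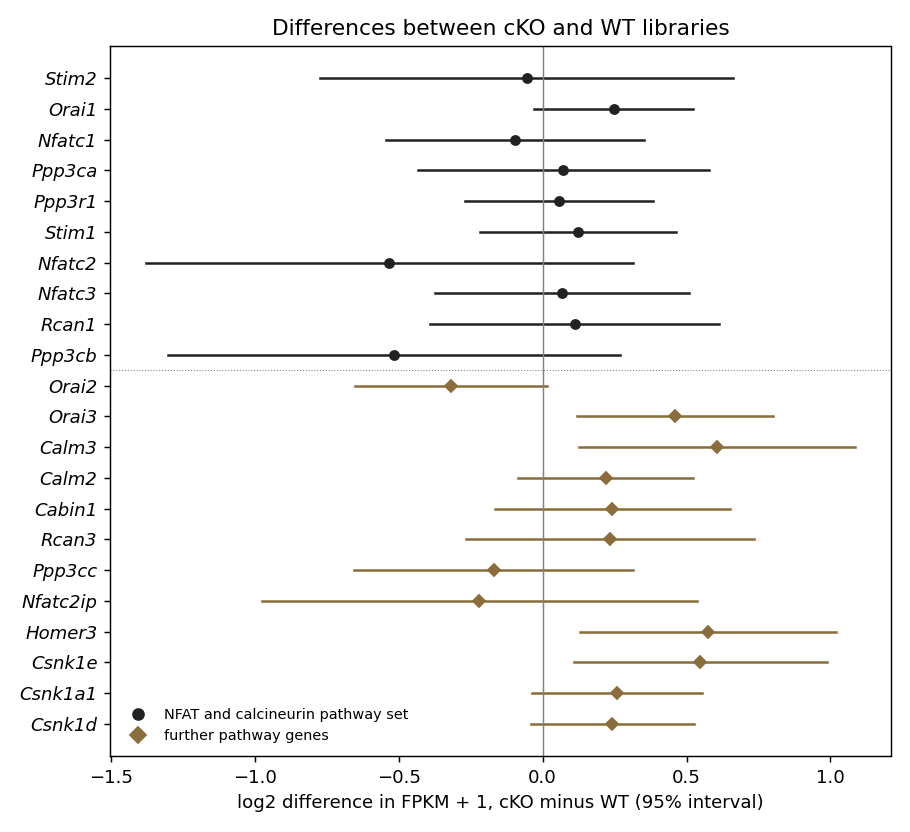
Log2 difference in FPKM + 1, cKO minus WT, with its 95% interval from limma, for the 10 genes of the set (black circles, in order of level) and for further pathway genes with the smallest unadjusted p in their list (brown diamonds). All 10 black intervals include 0, and Nfatc2 and Ppp3cb have the widest.

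The other ORAI subunits, which come from a list of 20 genes of calcium entry and handling, had groups that did not overlap either. Orai3 stood at 27.3, 23.2 and 24.8 FPKM across cKO 1 to 3, against 18.4, 19.0 and 16.4 FPKM across WT 1 to 3, a log2 difference of 0.46 with an interval from 0.12 to 0.80 (limma, adjusted p = 0.874). Orai2, a subunit known to dampen calcium entry through Orai1 in mouse T cells, lay on the other side, at 16.8, 14.2 and 14.5 FPKM across cKO 1 to 3, against 19.0, 19.1 and 19.3 FPKM across WT 1 to 3. Its log2 difference was -0.32 with an interval from -0.65 to 0.02 (limma, adjusted p = 0.925), and neither gene passed. Orai1 and Orai3 kept a difference above 0 and Orai2 one below 0 in all 16 alternatives, but the sizes moved with the scaling. With equal sums Orai2 differed by -0.17 (limma, adjusted p = 0.764) and Orai1 by 0.40, and with quantile normalization Orai1 differed by 0.16.

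A ratio of genes within a library does not change when the whole library is scaled by 1 factor. It can change under quantile normalization or centring by transcript length. Orai2 made up 14.0%, 11.6% and 12.6% of the summed FPKM of the 3 subunits across cKO 1 to 3, against 18.0%, 18.2% and 19.3% across WT 1 to 3. Orai3 made up 22.7%, 19.0% and 21.5% across cKO 1 to 3, against 17.5%, 18.1% and 16.4% across WT 1 to 3. These shares did not overlap between the groups, whereas the share of Orai1, at 66.2% ± 3.05 in libraries labelled cKO and 64.2% ± 0.443 in those labelled WT (SD, n = 3 each), did. The ratio of Orai3 to Orai2 was 1.62, 1.63 and 1.71 across cKO 1 to 3, against 0.972, 0.996 and 0.850 across WT 1 to 3, so Orai3 exceeded Orai2 in every library labelled cKO and in no library labelled WT. This ratio was chosen after its values were seen and has no test. Orai3 was higher and Orai2 lower without overlap, so their ratio had to separate the labels. The shares rest on the same values, and neither adds evidence beyond the genes themselves.

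Of the lists that mark other cells, the erythroid one separated the labels, and the sums of the others overlapped between them. Erythroid markers, 7 genes, summed to 253 to 514 FPKM in libraries labelled cKO and 95.1 to 233 FPKM in those labelled WT. Myeloid markers, 10 genes, summed to 216 to 895 FPKM in libraries labelled cKO, the highest in cKO 2, and to 183 to 314 FPKM in those labelled WT, with Ly6g at 0 in 4 libraries and Cd14 at 0 in 1 of them. CD8 and NK cell markers, 7 genes, summed to 28.3 to 30.6 FPKM in libraries labelled cKO and 26.3 to 31.1 FPKM in those labelled WT, with Cd8a at 0 in cKO 2 and Ncr1 at 0 in cKO 2 and WT 3. The part of these cells in the ORAI values was not tested.

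**Figure D3:**
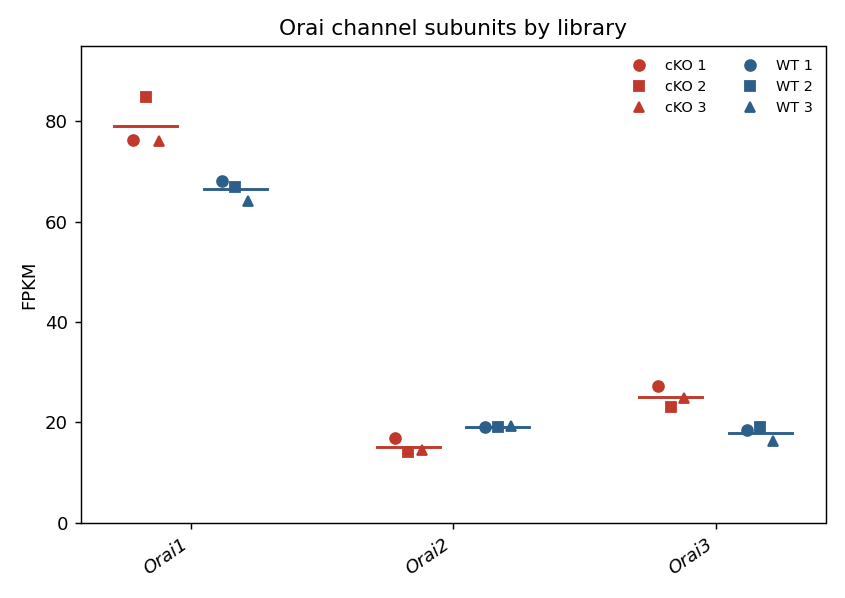
Level of the 3 ORAI subunits in FPKM on a linear axis from 0, 1 point per library and a bar at each group's mean of 3, with libraries labelled cKO (red) to the left of those labelled WT (blue). For Orai1 and Orai3 the 3 red points lie above the 3 blue ones, and for Orai2 they lie below.

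High and low libraries were found under both labels. Of the 10 genes, 4 were lowest in cKO 2 and 4 in WT 3, where 23.4% and 17.8% of all tested genes were lowest. Another 4 were highest in cKO 1 and 4 in WT 2, where 17.9% and 19.9% of all tested genes were highest. As a median over the set, log2(FPKM + 1) relative to the mean of the 6 libraries stood at 0.15, -0.20 and 0.04 across cKO 1 to 3, against -0.03, 0.16 and -0.16 across WT 1 to 3. Nfatc2 and Stim2 were the extremes in cKO 2, at -1.08 and -0.52. Over all genes, transcript length moved with some of these libraries. Over all tested genes whose longest transcript exceeds 6000 bases, the median of this value was 0.10, -0.15 and -0.02 across cKO 1 to 3, against -0.02, 0.09 and 0.01 across WT 1 to 3. Over genes under 1500 bases it was -0.18, 0.25 and 0.05 across cKO 1 to 3, against -0.05, -0.24 and 0.05 across WT 1 to 3. The libraries cKO 2 and cKO 1, and with it WT 2, thus lay at opposite ends. Nfatc2 has the longest transcript of the set, at 6828 bases, and Orai1, which stood at 0.23 in cKO 2, the shortest, at 1875 bases. The set did not follow length throughout. In cKO 2, Ppp3ca (4758 bases) stood at 0.20, Stim1 (4362 bases) at 0.07 and Rcan1 (2324 bases) at -0.29. The part of length in the values of the set was not tested. With values centred within 10 classes of transcript length, Nfatc2 differed by -0.48 and Orai1 by 0.16 (limma, adjusted p = 0.926 for each).

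**Figure D4:**
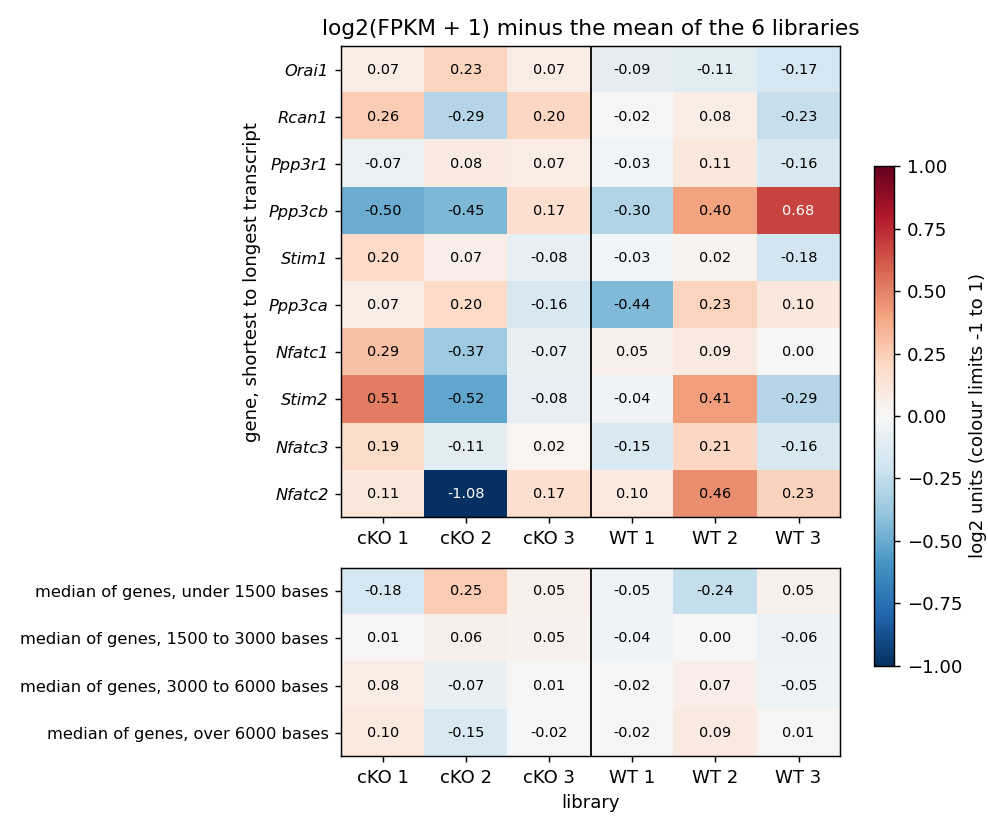
Each cell gives log2(FPKM + 1) minus the mean of the 6 libraries, for the 10 genes ordered from the shortest to the longest transcript (top) and as the median of all tested genes in 4 classes of transcript length (bottom), with libraries labelled cKO left of the line and those labelled WT right of it. Nfatc2 in cKO 2, at -1.08, is the lowest cell, and the length classes run in opposite directions in cKO 2 and in cKO 1 and WT 2.

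For Nfatc1 and Rcan1, which the pathway is known to induce, the tested genes with the nearest pattern were found as the smallest mean absolute difference of centred log2 values over the 6 libraries. The nearest to Nfatc1 were Tubgcp6, Cbx2 and Vps16, with mean differences of 0.03, 0.03 and 0.04. Those nearest to Rcan1 were Fzr1, Mtmr12 and Atp9a, with mean differences of 0.02, 0.02 and 0.03. Fzr1 stood at 82.8, 57.8 and 83.4 FPKM across cKO 1 to 3, against 71.3, 73.9 and 59.4 FPKM across WT 1 to 3, with the same low libraries, cKO 2 and WT 3, as Rcan1.

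Further genes of the pathway came from lists chosen by function, and none of them passed over all genes. The lists were made with earlier results of these libraries known, so their counts are a description. Of 20 genes of calcium entry and handling, all 20 tested, 12 lay above 0 with a median log2 difference of 0.06, and 2 had an unadjusted p under 0.05, Orai3 and Calm3, beside 5.37% of all genes. Groups did not overlap in 3 with higher and 1 with lower values, beside 6.96% and 3.75% of all genes. The direction of this list turned with the setting: 9 of 20 lay above 0 without cKO replicate 1 (median -0.04), without WT replicate 1 (median -0.03) and with quantile normalization (median -0.02). Without WT replicate 3 its median was -0.0038, and with equal sums 17 of 20 lay above 0 with a median of 0.21. Calm3, which encodes calmodulin, stood at 36.8, 57.3 and 39.9 FPKM across cKO 1 to 3, against 30.0, 25.0 and 30.6 FPKM across WT 1 to 3, without overlap (limma, adjusted p = 0.915).

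Of 12 NFAT kinases and chaperones, 10 were tested, 7 lay above 0 with a median of 0.16, and 4 had groups that did not overlap, all higher in libraries labelled cKO, as were 6.96% of all genes. These were Homer3, which competes with calcineurin for NFAT, and the casein kinases Csnk1a1, Csnk1d and Csnk1e, whose family rephosphorylates NFAT. Homer3 stood at 8.13, 8.10 and 9.77 FPKM across cKO 1 to 3, against 5.26, 6.36 and 4.87 FPKM across WT 1 to 3, a log2 difference of 0.57 with an interval from 0.13 to 1.02 (limma, adjusted p = 0.915). Csnk1e stood at 7.50, 8.67 and 7.92 FPKM across cKO 1 to 3, against 5.46, 5.77 and 4.36 FPKM across WT 1 to 3, a log2 difference of 0.55 with an interval from 0.11 to 0.99 (limma, adjusted p = 0.915). Csnk1a1 averaged 152 ± 13.2 FPKM in libraries labelled cKO and 126 ± 7.37 FPKM in those labelled WT, and Csnk1d averaged 105 ± 3.96 FPKM in libraries labelled cKO and 88.6 ± 6.84 FPKM in those labelled WT (SD, n = 3 each). The median of this list was 0.097 without cKO replicate 3 and 0.32 with equal sums. Of the 4 genes, Homer3 and Csnk1e had an unadjusted p under 0.05, beside 3.59% of all genes with higher values.

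Of 9 other NFAT and calcineurin genes, 5 were tested, 3 lay above 0 (2 without cKO replicate 1 or cKO replicate 3), and none had an unadjusted p under 0.05 or groups that did not overlap. Of 17 NFAT partners, 13 were tested and 11 lay above 0 with a median of 0.13 (0.07 without cKO replicate 2, 0.23 without cKO replicate 3 and 0.27 with equal sums). Jun, an AP-1 subunit that binds beside NFAT, went the other way, at 39.8 ± 5.50 FPKM in libraries labelled cKO and 54.0 ± 5.67 FPKM in those labelled WT (SD, n = 3 each; limma, adjusted p = 0.915). Irf8 was the partner with higher values without overlap, at 96.3 ± 13.5 FPKM in libraries labelled cKO and 73.8 ± 8.45 FPKM in those labelled WT. Of the 13 tested, 1 was thus higher and 1, Jun, lower without overlap, beside 6.96% and 3.75% of all genes. Only Jun had an unadjusted p under 0.05, beside 1.78% of all genes with lower values. Such counts do not set the partners apart from all genes.

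Of 25 genes known as calcium and NFAT targets in T cells, 23 were tested and 21 lay above 0, with a median log2 difference of 0.30 beside 0.03 over all genes. Without overlap, 7 were higher and 1 lower, beside 6.96% and 3.75% of all genes. An unadjusted p under 0.05 was likewise found for 7 higher and 1 lower, beside 3.59% and 1.78% of all genes. None passed over all genes. The median was 0.11 without cKO replicate 1 (21 tested), 0.14 with a minimum mean of 5 FPKM (17 tested) and 0.45 with equal sums. Tigit, Icos and Tnfrsf9, surface receptors of activated Treg, were among the higher ones, with log2 differences of 0.90, 0.81 and 0.40. The rest of the higher ones, Il4, Il10, Ifng and Havcr2, each averaged under 5 FPKM over the 6 libraries. By the estimated scale, 1 to 14 fragments lay behind an Il4 value and 1 to 33 behind a Havcr2 value. Havcr2 averaged 1.99 FPKM in libraries labelled cKO and 0.310 FPKM in those labelled WT. It passed the filter of 1 FPKM through the former, and Il2 through cKO 1 alone, at 2.49 FPKM. Egr2, an early target of NFAT that holds back activation, was the lower one, at 30.8, 31.6 and 31.5 FPKM across cKO 1 to 3, against 43.3, 42.9 and 40.1 FPKM across WT 1 to 3 (limma, adjusted p = 0.874). The calcium-induced Nr4a1 did not separate the groups, at 40.5 ± 3.63 FPKM in libraries labelled cKO and 39.8 ± 3.55 FPKM in those labelled WT (SD, n = 3 each). Several of these targets also mark effector Treg, and the list was made with results of these libraries known, so its count is a description.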

How the data were processed

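Spleen Treg were isolated by cell sorting, and SmartSeq2 libraries were run on an Illumina HiSeq instrument, per the labels' protocols. FastQC, cutadapt, HISAT2 and the builds NCBIM37 and mm9 appear in the submitters' processing notes. The FPKM values were deposited by the authors, whose table is named for cuffnorm; annotation, filters and strand setting were not given in the sources used here, so overlapping antisense reads cannot be told apart. The high and low Bach2 libraries of the series' design text were not analysed here.

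Identifiers were matched to symbols through reference tables (31840 of 36811). The 11979 genes that averaged 1 FPKM or more entered limma 3.58.1 (R 4.3.3) as log2(FPKM + 1), using a variance trend, no block and Benjamini-Hochberg adjustment; a fold on this scale understates changes of low genes. The procedure was tested on simulated data. The scale in fragments was read from single-transcript genes of at least 2000 bases with values under 3 FPKM; in each library 84.0% to 87.0% of values under 3 steps lay within 0.1 step of a whole multiple. It need not equal the fragments sequenced, and no count test was run. Transcript lengths are from GENCODE M21 and promoter windows from RefSeq on GRCm38.p6, which is newer than the build of the values. Python 3.11.15 handled tables and figures.

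The named genes are the 10 of the set, Bach2, the up to 4 of each list with the smallest p, and the genes nearest to Nfatc1 and Rcan1; others named from the lists were chosen after their values were seen, and some listed genes are not reported here. Members and lists were chosen with earlier results of these data known. The alternatives changed the pseudocount (0.1 or 5) and the filter (none, or 5 FPKM), or used equal sums, quantile and trimmed-mean scaling, no trend, a replicate block, each library left out and, added after seeing the data, centring by transcript length.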

Additional observations from a re-analysis of the deposited data

How the results depend on the processing

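In none of the 16 alternatives did a gene of the set pass, and the smallest adjusted p was 0.687 (limma, Orai1 with equal sums). Nfatc2, Ppp3cb, Rcan1, Stim1 and Orai1 kept their sign in all 16, and 9 of 160 values of the set had the other sign; the cause was not tested. After scaling to equal sums, Nfatc1 differed by 0.056 and Stim2 by 0.10, where the median of all genes was 0.17 in place of 0.03. Leaving out each library in turn gave -0.27 to 0.062 for Nfatc1, -0.011 to 0.19 for Nfatc3, -0.13 to 0.20 for Ppp3ca, -0.011 to 0.12 for Ppp3r1, -0.33 to 0.19 for Stim2, -0.75 to -0.12 for Nfatc2, -0.80 to -0.31 for Ppp3cb, 0.010 to 0.29 for Rcan1, 0.055 to 0.20 for Stim1, 0.20 to 0.27 for Orai1 and -0.065 to 0.25 for Foxp3, which differed by 0.12 with all 6. The number of all genes passing was 3, was 1 with the replicate block, and was 5 to 15 without 1 library. Libraries that share a replicate number were not treated as pairs in the main fit. Their deviations from the group means correlated at -0.06, -0.18 and -0.02, and those of other cKO and WT libraries at -0.07 to 0.13. Such values cannot show whether the animals were paired. Precision is limited by 3 libraries a group and, for Ppp3cb and Rcan1, by few fragments.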
